A study of Monodelphis domestica with 6 samples.

Results

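The LIN28 axis and the oncofetal RNA-binding genes were followed through the reprogramming of opossum skin fibroblasts. The set comprised 9 genes chosen by symbol, namely LIN28A, LIN28B, TRIM71, IGF2BP1, IGF2BP2, IGF2BP3, HMGA1, HMGA2 and DICER1. Of these, 8 had a row under their own symbol among the 35665 genes of the files, and HMGA2 was matched by gene number to a row with a LOC name. The RNA-seq libraries came from neonatal skin fibroblasts (neoSFs) of Monodelphis domestica, the gray short-tailed opossum, and from induced pluripotent stem cells (monoiPSCs) made from them. There were 2 neoSF libraries, 1 from each of the inbred strains FD2M1 and LSD1, and 4 monoiPSC libraries, the FD2M1 line and the LSD1 line each at passage 15 and passage 25. All cells were wild type and came from female pups at 10 days of age. The neoSFs received no treatment and were grown in serum for 3 to 4 passages, whereas the monoiPSCs had been nucleofected with episomal plasmids and were kept feeder-free with human LIF, bFGF and a ROCK inhibitor.

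Several features of the design bear on the values that follow. Each strain was represented by 1 line, so strain and line cannot be told apart, and the passages of a line are not separate lines. The p-values measure the spread between these libraries. The plasmids carried human OCT4, SOX2, NANOG, KLF4, LIN28 and cMYC, together with a dominant-negative mouse p53 and EBNA1, which maintains the episomes. The study examined transcripts of the human factors separately, which was not repeated here, and in the counts used reads from a human LIN28 transcript that aligned to opossum LIN28A could not be told apart from endogenous reads. The neoSFs were sequenced in-house with shorter single-end reads and the monoiPSCs by a service with longer paired-end reads, so that sequencing platform and cell type cannot be told apart. In bulk RNA, fewer cells expressing a gene and less RNA of that gene per cell cannot be told apart either.

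LIN28A and LIN28B are RNA-binding proteins that block the maturation of let-7 microRNAs, and LIN28A is a long-known marker of pluripotent cells. TRIM71, the vertebrate LIN41, is a let-7 target that represses mRNAs in early embryos and stem cells. The IGF2BP proteins bind, stabilise and localise mRNAs in embryonic tissue, and they are called oncofetal because tumours often express them again. HMGA1 and HMGA2 are architectural chromatin proteins that bind AT-rich DNA, and HMGA2 is a classical let-7 target. DICER1 cuts precursor microRNAs, let-7 among them, into their mature form.

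The total count per library was 14278794 and 16982978 in the neoSFs and 28684754 to 35564261 in the monoiPSCs. Levels are given as normalized read counts (NRC), which are not corrected for gene length, so levels of different genes are not ranked against each other. The detection floor was taken as 3 counts, which is an NRC of 5.85 (FD2M1) and 4.75 (LSD1) for neoSFs and of 1.55 to 1.88 for monoiPSCs. The counting intervals and the floors include only counting error. Amplified copies of a molecule are not independent, so the counting intervals can be too narrow. The confidence intervals given with the tests also include the spread between libraries. The cell identities were checked against marker genes. The summed NRC of 12 fibroblast markers was 1556760 and 1707770 in the neoSFs and 7047 to 13628 in the monoiPSCs. For 10 pluripotency markers, LIN28A among them, it was 304 and 187 in the neoSFs and 15051 to 18845 in the monoiPSCs.

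Reprogramming was accompanied by higher expression of LIN28A, LIN28B, TRIM71 and HMGA1 and by a near loss of IGF2BP3. IGF2BP1 was also higher on average, but its groups overlapped and its result depended on the processing and the libraries kept. A gene was called when its Benjamini-Hochberg adjusted p was at most 0.05 and its fold change at least 2 in edgeR's quasi-likelihood test of the 4 monoiPSC against the 2 neoSF libraries. All 8 genes with a row under their own symbol passed the filter on low values, which asked for an NRC of 20 or more throughout the neoSF or throughout the monoiPSC libraries. Of these, 5 were called higher, 1 was called lower, and IGF2BP2 and DICER1 were not called. Over all 13072 genes tested, 45.9% were called, 24.3% higher and 21.6% lower, so that a call by itself sets no gene apart in this comparison. The median log2 fold change was 2.31 over the 8 genes and 0.08 over all genes tested.

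**Figure D1:**
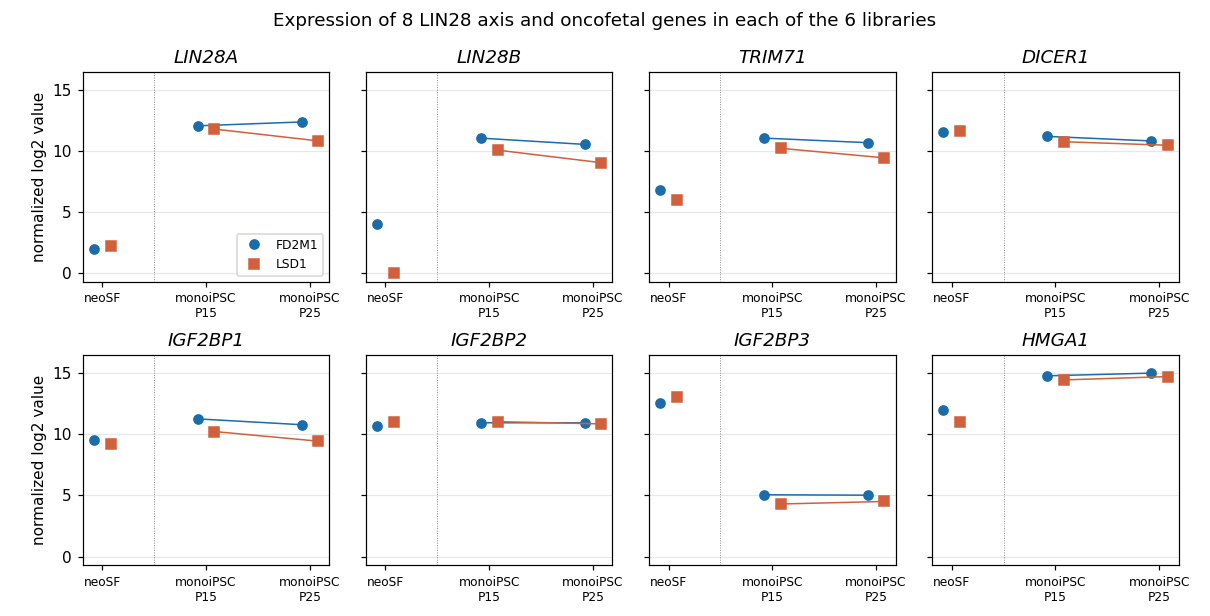
Normalized log2 values of the listed genes other than HMGA2 in the 6 libraries, with neoSFs and monoiPSCs in separate groups. LIN28A, LIN28B, TRIM71 and HMGA1 lie higher in every monoiPSC library than in both neoSF libraries, and IGF2BP3 lies far lower.

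LIN28A (gene 100012320, chromosome 4 of the MonDom5 build) was not above the detection floor before reprogramming. It had 2 counts in the FD2M1 neoSFs and 3 counts in the LSD1 neoSFs, at an NRC of 3.90 and 4.75. The FD2M1 line had an NRC of 4328 (passage 15) and 5391 (passage 25), and the LSD1 line 3597 and 1840. The groups did not overlap, with 36.1% of all genes tested likewise higher in every monoiPSC library, and the lowest monoiPSC library was LSD1 at passage 25. With the neoSFs set to the floor of 3 counts, the monoiPSC mean was 695-fold higher on the scale of the edgeR fit, which is not a lower limit. From the counts as observed, and over both strains, the ratio of monoiPSCs to neoSFs was 867. Its 95% counting interval of 371 to 2670 reflects the few neoSF counts. Within FD2M1 the ratio was 1245 (counting interval 345 to 10280), and within LSD1 it was 572 (196 to 2774). The adjusted p of LIN28A was 4.559e-05 in edgeR's quasi-likelihood test.

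LIN28B (gene 100028142, chromosome 2), the paralog of LIN28A, had an NRC of 16.6 in the FD2M1 neoSFs, from a deposited count of 8.5 that was rounded to 8, and 0 in the LSD1 neoSFs. After reprogramming, the FD2M1 line stood at 2150 (passage 15) and 1508 (passage 25), and the LSD1 line at 1089 and 533. Every monoiPSC library stood above both neoSF libraries, and the FD2M1 libraries stood above the LSD1 libraries. In FD2M1 the monoiPSC level was 117 times that of the neoSFs (counting interval 59.5 to 271). In LSD1 it was at least 171-fold higher, with the neoSF library set to 3 counts. LIN28B was called (log2 fold change 7.61, standard error 1.04, adjusted p = 0.000647). The size of that fold change rests on the neoSF libraries, since it was 6.50 when LSD1 and 14.03 when FD2M1 was left out of them.

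TRIM71 (gene 100032082, chromosome 8) was already measurable in fibroblasts, at an NRC of 113 in FD2M1 and 63.4 in LSD1. It reached 2155 (passage 15) and 1661 (passage 25) in the FD2M1 line, and 1206 and 702 in the LSD1 line. The groups did not overlap. This was a log2 fold change of 4.13 ± 0.55 (standard error), or 17.5-fold, with an adjusted p of 0.0006083. Of the TRIM-NHL relatives of TRIM71, none was called higher. TRIM3 fell, with a log2 fold change of -1.02 and an adjusted p of 0.003327, while TRIM2 (-0.76) and TRIM32 (-0.10) were not called. The TRIM3 value lay at the 2-fold limit, and no gene of this list was called without the FD2M1 neoSFs or without either monoiPSC library at passage 15, while 2 were called lower without the LSD1 neoSFs.

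The 3 IGF2BP paralogs had 3 different outcomes. IGF2BP3 (gene 100010992, chromosome 8) had an NRC of 6177 in the FD2M1 and 8538 in the LSD1 neoSFs. What remained in the FD2M1 line was 33.3 (passage 15) and 32.6 (passage 25), and in the LSD1 line 19.7 and 22.8. All 4 monoiPSC libraries thus held a low but detectable level. This was a log2 fold change of -7.99 ± 0.27 (standard error), or 254.5-fold lower, with an adjusted p of 7.807e-06, and only 83 of the 13072 genes tested had a lower log2 fold change.

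IGF2BP1 (gene 100018704, chromosome 2) moved the other way, by less and with more spread. Its NRC was 730 in the FD2M1 and 602 in the LSD1 neoSFs. The FD2M1 line had 2478 (passage 15) and 1780 (passage 25), and the LSD1 line 1208 and 699.5. The groups overlapped, because LSD1 at passage 25 lay below the FD2M1 neoSFs. With a log2 fold change of 1.31 ± 0.48 (standard error) and an adjusted p of 0.04476, it was called in 5 of 12 settings, the main one included. The call ended with RLE scaling (adjusted p = 0.05008), with limma on the log2 values (adjusted p = 0.1053) and without any library other than LSD1 at passage 25, and its adjusted p lay between 0.006454 and 0.1697 in the alternatives tried.

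IGF2BP2 (gene 100027181, chromosome 2) had an NRC of 1694 and 2054 in the FD2M1 and LSD1 neoSFs. The corresponding monoiPSC values were 1988 (passage 15) and 1986 (passage 25) for the FD2M1 line, and 2119 and 1865 for the LSD1 line. The groups overlapped. Its log2 fold change was 0.18 with a 95% confidence interval of -0.16 to 0.52 (adjusted p = 0.3024). The difference in log2 NRC between IGF2BP1 and IGF2BP3 was -3.08 in the FD2M1 and -3.83 in the LSD1 neoSFs and lay between 4.94 and 6.22 in the monoiPSCs. Its sign is no ranking of the paralogs, since gene length is not corrected, but its shift between cell types was larger than its spread within either group.

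HMGA1 (gene 103105457, chromosome 2) had an NRC of 4031 in the FD2M1 and 2048 in the LSD1 neoSFs. It stood at 28591 (passage 15) and 33341 (passage 25) in the FD2M1 line, and at 22663 and 27413 in the LSD1 line. The groups did not overlap, and the log2 fold change of 3.30 ± 0.34 (standard error), or 9.86-fold, had an adjusted p of 0.0001954. HMGA2 had no row under its symbol. LOC103096415 on chromosome 8, which carries the gene number that RefSeq assigns to HMGA2, was listed at 0 in all 6 libraries and was not tested. Of the 35665 genes, 50.1% were likewise at 0 in all 6 libraries. Whether this row covers the full gene was not examined, so no absence of HMGA2 RNA is read from it.

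DICER1 (gene 100019289, chromosome 1) had an NRC of 3087 and 3258 in the FD2M1 and LSD1 neoSFs. The FD2M1 line gave 2375 (passage 15) and 1835 (passage 25), and the LSD1 line 1753 and 1436. Every monoiPSC library lay below both neoSF libraries, as it did for 37.1% of all genes tested. The log2 fold change was -0.68 (95% confidence interval -1.16 to -0.21, adjusted p = 0.02106), a 1.60-fold difference that did not reach the 2-fold limit of a call.

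**Figure D2:**
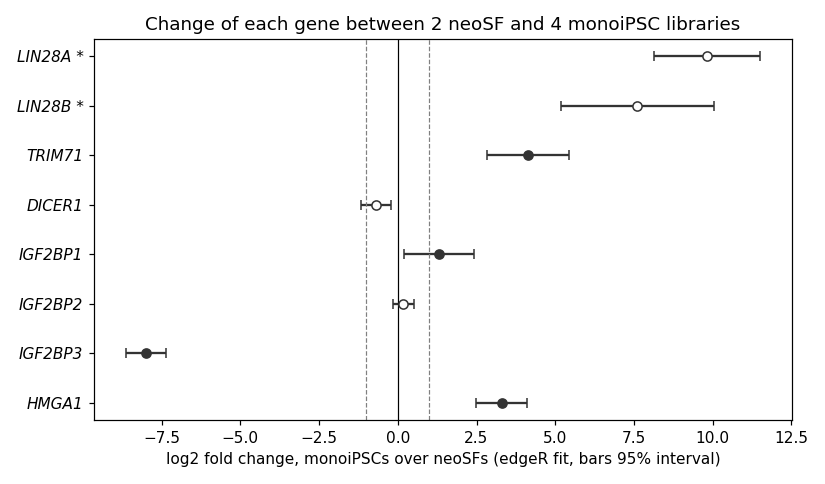
Log2 fold change of monoiPSCs against neoSFs for the 8 tested genes, with 95% confidence intervals and dashed lines at a 2-fold change. Filled symbols are called genes and open symbols uncalled ones, except that LIN28A and LIN28B, marked with an asterisk, are called but drawn open because their neoSF counts were near or at the floor. IGF2BP3, at -7.99, is the only called gene left of 0, and the interval of IGF2BP1 comes close to 0.

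Whether the change from neoSFs to monoiPSCs differed between the strains was asked with the interaction of strain and cell type, where the spread comes from the passages. None of the 8 genes was called by edgeR, where 0.0841% of all genes were, and DESeq2 called none of the 8 either, against 2.33% of all genes. At an unadjusted p under 0.05 the count was 1 of 8, against 9.13% of all genes. That gene was IGF2BP3, whose log2 fold change was lower in LSD1 by 1.10 (95% confidence interval of the difference, LSD1 minus FD2M1, -1.82 to -0.39, adjusted p = 0.3183). The other 7 had adjusted p values of 0.6783 or more.

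Among the monoiPSC libraries, LIN28B, TRIM71 and IGF2BP1 followed a shared order. Each was higher in both FD2M1 libraries than in both LSD1 libraries, and passage 15 exceeded passage 25 within each line, and DICER1 followed the same order over a narrower range. That order was found in 1248 of the 12252 genes that reached an NRC of 20 in all 4 libraries, or 10.2%. LIN28B covered a 4.03-fold range, IGF2BP1 3.54-fold, TRIM71 3.07-fold and DICER1 1.65-fold. LIN28A covered a 2.93-fold range but was highest in FD2M1 at passage 25. HMGA1 (1.47-fold) and IGF2BP2 (1.14-fold) varied less. LSD1 at passage 25 was the lowest library for LIN28A, LIN28B, TRIM71, IGF2BP1, IGF2BP2 and DICER1, as it was for 30.5% of the 12252 genes, while HMGA1 and IGF2BP3 were lowest in LSD1 at passage 15. Each line and passage was a single library, so neighbours in these orders have no replicate error of their own.

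**Figure D3:**
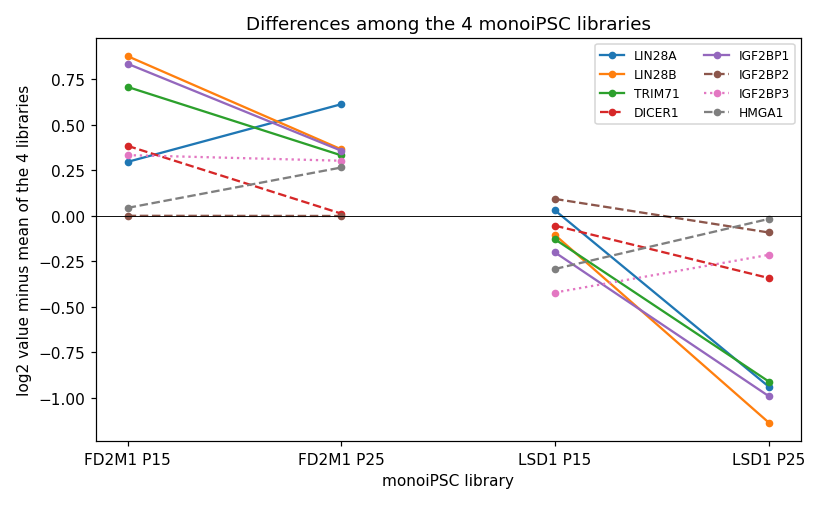
Log2 NRC of the listed genes other than HMGA2 in each monoiPSC library, as the deviation from the gene's mean over the 4 libraries. The passages of a line are joined. LIN28B, IGF2BP1 and TRIM71 descend from passage 15 to passage 25 in both lines and are lowest in LSD1 at passage 25, whereas LIN28A is higher at passage 25 in FD2M1 and lower in LSD1.

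The comparison of the lines asked whether LSD1 and FD2M1 monoiPSCs differ in these genes once passage is taken into account. The filter left 7 genes, since IGF2BP3 had an NRC below 20 in LSD1 at passage 15. edgeR called 0 of the 7 and 0% of the 12252 genes tested, while 6 of the 7 were lower in LSD1 at an unadjusted p under 0.05, against 7.01% of all genes (14.2% in either direction). The same 6 were lower in both LSD1 libraries than in both FD2M1 libraries, as were 22.6% of all genes. DESeq2, which called 1.55% of all genes, called LIN28B, TRIM71 and IGF2BP1. By edgeR, the log2 fold change of LSD1 against FD2M1 was -1.23 for LIN28B (95% confidence interval -1.71 to -0.76, adjusted p = 0.1359). It was -1.19 for IGF2BP1 (-1.60 to -0.78, adjusted p = 0.1333) and -1.03 for TRIM71 (-1.47 to -0.60, adjusted p = 0.1362). The DESeq2 values were nearly the same in size, with adjusted p of 0.0002166 for LIN28B, 0.0001122 for IGF2BP1 and 0.002437 for TRIM71. For LIN28A it was -0.90 (-1.67 to -0.14, adjusted p = 0.2947 by edgeR and 0.06105 by DESeq2), and the LSD1 libraries differed from the FD2M1 libraries by -0.27 at passage 15 and by -1.55 at passage 25 in log2 NRC. DICER1 (-0.39) and HMGA1 (-0.30) were lower in LSD1 at both passages and were not called, and IGF2BP2 differed by 0.0049 (-0.37 to 0.38).

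Passage was compared within the same 4 libraries, with line as a block. edgeR called 0 of the 7 genes and 0% of the 12252, and at an unadjusted p under 0.05 LIN28B, IGF2BP1 and TRIM71 were lower at passage 25, against 4.42% of all genes (9.35% in either direction). DESeq2 called none of the 7 and 0.922% of all genes. The log2 fold change of passage 25 against passage 15 was -0.78 for LIN28B (standard error 0.19, adjusted p = 0.3515), -0.65 for IGF2BP1 (adjusted p = 0.368) and -0.59 for TRIM71 (adjusted p = 0.4363). In log2 NRC, LIN28B was lower at passage 25 by 0.51 in FD2M1 and by 1.03 in LSD1. A value that is lower at passage 25 in both lines occurred in 29.6% of the 12252 genes. LIN28A did not follow this pattern, with a log2 difference of 0.32 in FD2M1 and -0.97 in LSD1, and HMGA1 was higher at passage 25 by 0.22 in FD2M1 and 0.27 in LSD1. When 1 library was left out, which also dropped the line from the fit, the LIN28B value ranged from -1.62 without FD2M1 passage 25 (adjusted p = 0.02448, called, with LSD1 as the only passage 25 library) to -0.11 without FD2M1 passage 15 and -0.10 without LSD1 passage 25.

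Among the monoiPSCs, skeletal muscle markers were highest in the library with the lowest LIN28A and LIN28B. The summed NRC of the 5 markers with a row was 16772 in LSD1 at passage 25. It was 1971 to 6136 in the other monoiPSC libraries, and 17524 and 21803 in the neoSFs. ACTC1 made up 16344 and 21468 of the neoSF sums, FD2M1 first, with MYOG at 206 and 22.2. In LSD1 at passage 25 ACTC1 stood at 6418, against 630 to 1391 in the other monoiPSC libraries. MYOG stood at 5549 there and at 4135 in LSD1 at passage 15. In the FD2M1 line MYOG was 1527 (passage 15) and 985 (passage 25). In LSD1 at passage 25 the myogenic factor MYOD1 had an NRC of 591, against 35.1 to 103 in the other monoiPSC libraries, and the muscle filament gene DES 4213, against 315 to 769. MYF5, which marks early muscle precursors, was at the floor there, with an NRC of 1.03. CDX2, a regulator of posterior body identity, was lowest in the same library, at 1124 against 2662 to 3991. The summed NRC of the pluripotency markers was 15129 there, within 15051 to 18845 over the 4 libraries. This sum includes LIN28A itself, so it is not independent of the LIN28A level. The part of these other cell types in the LIN28A, LIN28B, TRIM71 and IGF2BP1 levels was not tested.

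Over the other marker lists, neural markers reached 15948 in LSD1 at passage 25 against 7085 to 11508 in the other monoiPSC libraries, of which NES made up 10431. TUBB3 (3414) and ELAVL3 (913) were also highest there, against 1120 to 3171 and 360 to 571 in the other monoiPSC libraries. PAX6 (2.06) and SOX1 (18.0) were lowest there among the monoiPSCs. So was DCX (1170), by a narrow margin, with 1175 in FD2M1 at passage 25. Primitive streak and mesoderm markers summed to 1195 to 4082 in the monoiPSCs, nearly all of it CDX2, with EOMES at or below an NRC of 1.03. Endoderm markers summed to 1126 to 3843, mostly FOXA2, with GATA4 at 0. Melanocyte markers summed to 4601 to 15555, mostly DCT, and were highest in LSD1 at passage 15. Keratinocyte markers summed to 26.0 to 71.3 with KRT14 and TP63 at 0, endothelial markers to 66.8 to 140 and blood markers to 39.2 to 46.9 in the monoiPSCs. In the neoSFs, FD2M1 first, the sums were 239 and 292 for keratinocyte, 253 and 402 for melanocyte and 217 and 51.5 for endothelial markers. They were 103 and 115 for blood and 7305 and 25792 for neural markers, of which NES made up 6143 and 24777. For primitive streak and mesoderm markers they were 27.7 and 25.8, and for endoderm markers 521 and 1216.

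The genes nearest to LIN28A across the 4 monoiPSC libraries were found by the distance between log2 deviations from each gene's mean. Among genes with a symbol other than a LOC number, NAF1, an assembly factor of H/ACA ribonucleoproteins, was nearest at a distance of 0.18. FAM83B (0.18), NPR3, the clearance receptor of natriuretic peptides (0.21), HMCN1, an extracellular matrix protein (0.25), and FAM206A (0.28) followed. TRIM71 was the nearest of the listed genes, at rank 119 among the 12252 genes, with IGF2BP1 at rank 310 and LIN28B at rank 390. DICER1 was at rank 1332, HMGA1 at 3694 and IGF2BP2 at 4048. Likeness over 4 libraries rests on few points that share strain and passage.

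The genes of let-7 maturation were taken as a separate list. Mature let-7 is not measured in poly-A libraries. The 8 rows with a symbol that starts with MIRLET7 were at 0 in all 6 libraries, as were 50.1% of all genes. Of 8 genes of microRNA processing and let-7 turnover with a row, 2 were called higher and 0 lower, with a median log2 fold change of 0.55. Over all genes tested 24.3% were called higher and 21.6% lower with a median of 0.08, so the share called higher was near that of all genes. PRKRA, a partner of DICER1, rose by 2.65 on the log2 scale, from 599 and 793 in the neoSFs to 3560 to 5505 in the monoiPSCs (NRC). DIS3L2, the exonuclease that degrades uridylated pre-let-7, rose by 1.34 on the log2 scale. The uridylyltransferases that act with LIN28A, TUT4 (log2 fold change -0.58) and TUT7 (-0.09), were not called, nor were DROSHA, DGCR8, XPO5 and KHSRP. Of 5 Argonaute and GW182 genes, which form the silencing complex, AGO4 rose by 1.74 and TNRC6B fell by 1.15 on the log2 scale, and AGO2, TNRC6A and TNRC6C were not called. The TNRC6B call was lost without either neoSF library and without any monoiPSC library other than FD2M1 at passage 15.

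Targets of let-7 known from textbooks, outside the set, were called in both directions. Of 20 with a row, 10 were called higher and 2 lower, beside 24.3% and 21.6% of all genes tested, with a median log2 fold change of 0.78. E2F2, an S-phase transcription factor, rose by 4.08, the cell cycle phosphatase CDC25A by 3.58 and the orphan nuclear receptor NR6A1 by 3.23 on the log2 scale. THBS1, a matrix glycoprotein abundant in the neoSFs, fell by 5.61 and CDK6 by 1.09. MYC (-0.56), whose row could also hold reads of the human cMYC plasmid, was among the 8 not called. Within the monoiPSCs 6 of the 20, namely MYC, CDC25A, E2F2, IRS2, ARID3A and NR6A1, had the order of libraries seen for LIN28B, beside 10.2% of the 12252 genes. That order was not particular to this list. It was seen in 3 of 5 Argonaute and GW182 genes, 1 of 8 processing genes and 0 of 3 TRIM-NHL relatives. Among the lists below, it was seen in 2 of 9 high mobility group, 3 of 13 RNA-binding and 2 of 4 IGF2BP-bound genes.

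Of 9 other high mobility group genes with a row, 8 were called higher and 0 lower, beside 24.3% called higher among all genes tested, with a median log2 fold change of 2.59. Between 6 and 8 were called over the alternatives. On the log2 scale HMGN5 rose by 5.36, HMGB2, which is linked to proliferating cells, by 4.12 and HMGN2 by 3.48. These families have near-identical copies in mammalian genomes, so counts of single members are uncertain where reads could be shared. Of 13 other developmental RNA-binding genes tested, 6 were called higher and 0 lower, beside the same 24.3%, with a median of 0.84. MSI1, a translational regulator of stem cells, rose by 3.93 on the same scale, the cold shock protein YBX3 by 3.91 and RBM38 by 3.56. Of 4 transcripts bound by IGF2BP proteins, 0 were called by edgeR, beside 45.9% of all genes tested. Their log2 fold changes were 0.05 for ACTB, -0.12 for CD44, 0.65 for CTNNB1 and -0.56 for MYC. CTNNB1 (adjusted p = 0.02899) and MYC (adjusted p = 0.02689) missed only the 2-fold limit in edgeR's test. The adjusted p was 0.883 for ACTB and 0.8163 for CD44. IGF2 and H19 were not analysed here.

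**Figure D4:**
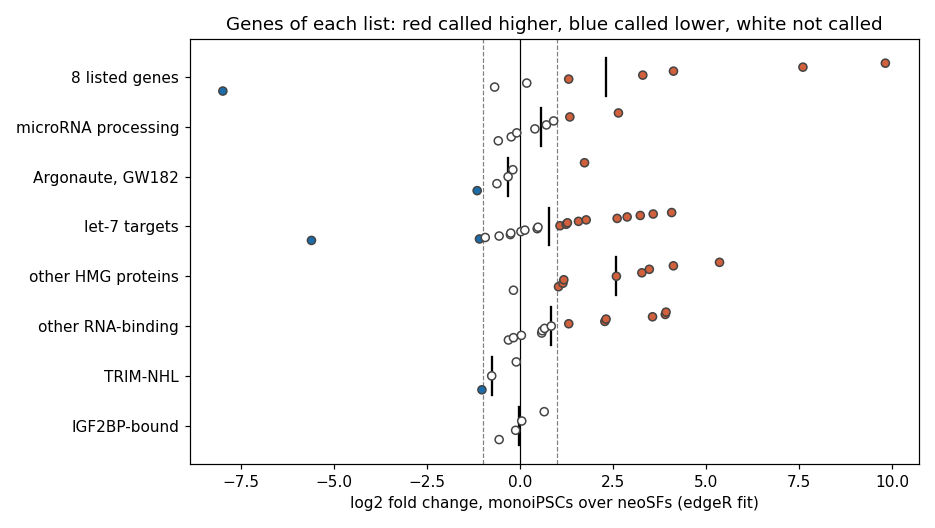
Log2 fold change of monoiPSCs against neoSFs for each tested gene of the listed set and of the further gene lists, with a bar at each list's median. The high mobility group list lies mostly above a log2 fold change of 1, whereas the transcripts bound by IGF2BP proteins lie between -0.56 and 0.65.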

How the data were processed

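Poly-A RNA of 2 neoSF and 4 monoiPSC libraries was sequenced. Reads were aligned by the authors to MonDom5 and counted on RefSeq genes with StrandNGS after quality and mapping filters. The deposited counts are largely fractional (87.1% of values above 0), so these estimated counts were rounded before testing. A companion table, deposited as log2 values normalized with DESeq, gave the NRC. Per the submitters' processing notes bcl2fastq was used.

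Genes reaching an NRC of 20 throughout either group were tested with edgeR 4.0.16 (quasi-likelihood, TMM scaling, R 4.3.3). The standard errors and confidence intervals given for edgeR are approximate, since they were derived from the fold change and the F statistic of that test. Comparisons within monoiPSCs required it in all 4. The steps were tested on simulated data. RLE scaling, no filter, DESeq2 1.42.0, limma 3.58.1, a strain block and leaving out each library were alternatives. The strain of a neoSF culture and its line is the same, and their deviations from the group means correlated by -0.02 to 0.08. Each list was matched by symbol or gene number, the latter for HMGA2, TUT4, TUT7, YBX3, KRT14, DCX and TBXT. Of the identifiers, 25831 matched RefSeq mMonDom1.pri, another assembly, which was used for names only. Named genes were the 9 listed genes, per further list at most 3 called genes in each direction with the largest log2 fold change (all genes of lists of 6 or fewer), and the 5 nearest to LIN28A. Others named in passing were chosen after their values were seen. The set, lists and tests were chosen with earlier results of these data known.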

Additional observations from a re-analysis of the deposited data

How the results depend on the processing

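For monoiPSCs against neoSFs, 81 of 88 recomputed values of the 8 genes kept their direction and side of the threshold, and the 7 others were all losses of the IGF2BP1 call. With strain as a replicate block, 6012 genes were called against 6000 and no call of the 8 genes changed. Called genes between passages numbered 0, with DESeq2 113 and with 1 library left out 0 to 215, the highest without FD2M1 passage 25. Between lines they numbered 0, with DESeq2 190, of which 3 were listed genes, and 0 to 50 with 1 library left out. For the interaction they numbered 11, without the filter 35, with DESeq2 304, and 0 to 110 with 1 library left out. Listed genes lower at passage 25 numbered 0 to 1 with 1 library left out. Directions reversed for LIN28A at passage 25 (0.44 without LSD1 passage 25), IGF2BP1 (0.024 without FD2M1 passage 15), IGF2BP2 between lines (-0.085 without LSD1 passage 15) and the TRIM71 interaction (0.029 without FD2M1 passage 15 and 0.19 without LSD1 passage 25, of a range from -0.63 to 0.19). The cause was not tested. Removing a monoiPSC library left a passage or line with 1 library, assumed to vary like the rest, and the line or passage term was dropped. Without the filter the median log2 fold change of all genes was 0.23 against 0.08.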
